A study of Mus musculus with 18 samples.

Results

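The genes described here are the integrin chains of J774.1 cells other than the CR3 pair, which is Itgam with Itgb2, the chains of complement receptor 3. They were chosen by gene symbol and are Itga4, Itga5, Itga6, Itgal, Itgav, Itgax, Itgb1, Itgb3, Itgb5 and Itgb7. Of these 10, 9 had a row among the 18204 genes of the authors' table, and all 9 were among the 16383 genes tested. Itgb3, the β3 chain, was not analysed here.

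J774.1 is a mouse macrophage cell line, and RNA was sequenced in 18 samples that fall into 6 groups of 3 replicates. Wildtype and Ctbp1/2 dKO cells, in which Cas9 had been used to introduce frameshifts and early stop codons into Ctbp1 and Ctbp2, were each given vehicle (PBS/DMSO), 1.5 mM MTOB or 0.25 mM 4-Cl-HIPP, and all groups were collected after 4 h. CTBPs are transcriptional corepressors with a dehydrogenase domain, MTOB is an analogue of their substrate, and 4-Cl-HIPP is an inhibitor developed with MTOB as the lead structure. The knockout cells had grown out from single cells, so the effect of the genotype and the difference between clones cannot be told apart, and a single vehicle group per genotype served both inhibitors. Nothing says that replicates came from separate cultures beyond the term biological triplicate, so p-values measure the spread between these samples.

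Integrins are cell-surface receptors made of an α and a β chain. They hold cells to the extracellular matrix or to other cells and pass signals in both directions across the membrane. The α4 chain pairs with β1 or β7 and binds VCAM1 and fibronectin, α5 pairs with β1 as the classical fibronectin receptor, and α6 pairs with β1 as a laminin receptor. The αv chain pairs with β1, β3 or β5 and binds vitronectin and other proteins with an RGD motif, among them the bridging protein MFG-E8, through which macrophages take up apoptotic cells. The αL and αX chains pair with β2, as LFA-1, which binds ICAMs, and as complement receptor 4.

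Values are TPM, a measure of transcript abundance, which are corrected for transcript length and scaled to a common total within each sample. The sequencing depth of the samples is unknown. Differences are log2 fold changes of TPM + 1, which understates changes of genes with few TPM, and were tested with limma over all genes tested with Benjamini-Hochberg adjustment. A gene passed the test at an adjusted p below 0.05.

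In the GRCm39 assembly 3 of the α chain genes lie on chromosome 2, namely Itga6 (71575960 to 71689757), Itga4 (79085660 to 79163467) and Itgav (83554403 to 83637260), all on the plus strand. Itgal (126895432 to 126934320) and Itgax (127728668 to 127749829) lie on the plus strand of chromosome 7, and Itgax begins 10914 bases beyond the end of Itgam. Itgb7 (102124429 to 102140379) and Itga5 (103252713 to 103275270) lie on the minus strand of chromosome 15. Itgb1 is on chromosome 8 (129411876 to 129460618, plus strand) and Itgb5 on chromosome 16 (33649988 to 33771137, plus strand).

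The promoters of 3 members are shown because these genes gave different responses, with Itga4 lower in dKO cells, Itgb7 near 0 in wildtype and well above it in dKO cells, and Itga5 higher both in dKO cells and after either inhibitor. The sequences are from RefSeq (GRCm38.p6), run from 250 bases before the gene start to 50 bases after it, and read 5′ to 3′ on the strand of the gene. Capitals mark CACCC on either strand (CACCC or GGGTG), the letters of the CACCC box, a type of element bound by KLF factors, some of which recruit CTBPs.
Itga4, chr2:79255176-79255475, plus strand: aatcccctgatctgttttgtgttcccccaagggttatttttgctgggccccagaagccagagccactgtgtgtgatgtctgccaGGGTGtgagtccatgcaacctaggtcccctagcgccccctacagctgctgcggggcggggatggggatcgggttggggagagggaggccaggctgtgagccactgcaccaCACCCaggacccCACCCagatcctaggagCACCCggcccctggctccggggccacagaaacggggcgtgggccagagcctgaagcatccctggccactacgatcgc
Itgb7, chr15:102231886-102232185, minus strand: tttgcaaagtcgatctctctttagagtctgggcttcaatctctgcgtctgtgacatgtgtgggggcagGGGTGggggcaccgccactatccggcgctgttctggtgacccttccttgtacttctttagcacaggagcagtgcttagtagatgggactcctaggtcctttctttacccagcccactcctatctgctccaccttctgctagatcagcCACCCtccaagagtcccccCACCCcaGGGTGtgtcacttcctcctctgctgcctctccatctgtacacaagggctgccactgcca
Itga5, chr15:103366742-103367041, minus strand: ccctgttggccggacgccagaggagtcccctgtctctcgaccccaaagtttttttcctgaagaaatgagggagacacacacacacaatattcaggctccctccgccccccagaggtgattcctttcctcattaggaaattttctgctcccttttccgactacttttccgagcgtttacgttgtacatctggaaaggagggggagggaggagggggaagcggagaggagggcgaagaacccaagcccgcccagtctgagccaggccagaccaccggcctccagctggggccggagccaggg

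The Itga4 promoter held 4 of these matches, the Itgb7 promoter 4 and the Itga5 promoter 0. Over all 32851 promoters of this length, 57.5% held at least 1 match and 3.1% held 4 or more. Of the 7 members found in the promoter table, Itgb1 held 2, Itgav and Itgb5 held 1 each, and Itgax held 0. The members with 4 matches, Itga4 and Itgb7, were picked to be shown for their different responses. Their opposite directions between genotypes thus follow from that choice, and a link to the matches was not tested. The GC content was 64.3% for Itga4, 56.3% for Itgb7 and 58.7% for Itga5, against a median of 52.7% over all promoters. The E-box CAGGTG (or CACCTG), a site of ZEB-type repressors that shares letters with the CACCC box, was found only in Itgb5 among these 7 members and in 20.2% of all promoters. The PU.1-type core GAGGAA (or TTCCTC) was found in Itga5, Itgav, Itgb1 and Itgb7 and in 28.3% of all promoters, and the AP-1 site TGAGTCA (or TGACTCA) was found in Itgax and in 5.2%. A match describes the letters and says nothing of binding.

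The targeted genes and the markers of the cell type were examined first. Ctbp1 had 218 ± 18.1 TPM in wildtype and 25.1 ± 0.638 TPM in dKO cells under vehicle (SD, n = 3), a log2 fold change of -3.07 (adjusted p = 1.81e-10). Ctbp2 had 92.6 ± 4.57 and 75.9 ± 3.13 TPM (SD, n = 3), a log2 fold change of -0.28 (adjusted p = 0.00403). These are RNA levels and do not measure protein, and the paper reported by western blot that both proteins were lost. Of 8 macrophage markers, 7 had a row, and their sum was 2248 to 2621 TPM over all 18 samples, with Csf1r, Cd68 and Lyz2 each at 465 TPM or more in every sample. Replicates of a group correlated with a Pearson r of 0.983 to 0.987 across genes. In 1 library, dKO MTOB replicate 1, the 10 most abundant genes took 8.78% of the TPM, against 10.1% or more in the other libraries.

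In wildtype cells under vehicle, Itga4 was the most abundant of the 9 chains by a wide margin. It had 536 ± 25.5 TPM, followed by Itgb1 with 69.2 ± 2.68 and Itgb5 with 53.7 ± 2.37 TPM (SD, n = 3). Itgav had 24.5 ± 5.49 TPM and Itga5 22.6 ± 1.49 TPM. Itga6 had 4.66 ± 1.07 TPM, Itgal 4.38 ± 0.525 TPM and Itgb7 1.55 ± 0.881 TPM, and Itgax was listed at 0 in all 3 replicates. RNA of the α4 chain thus exceeded that of its β1 partner, with 7.75 ± 0.559 Itga4 TPM per Itgb1 TPM.

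**Figure D1:**
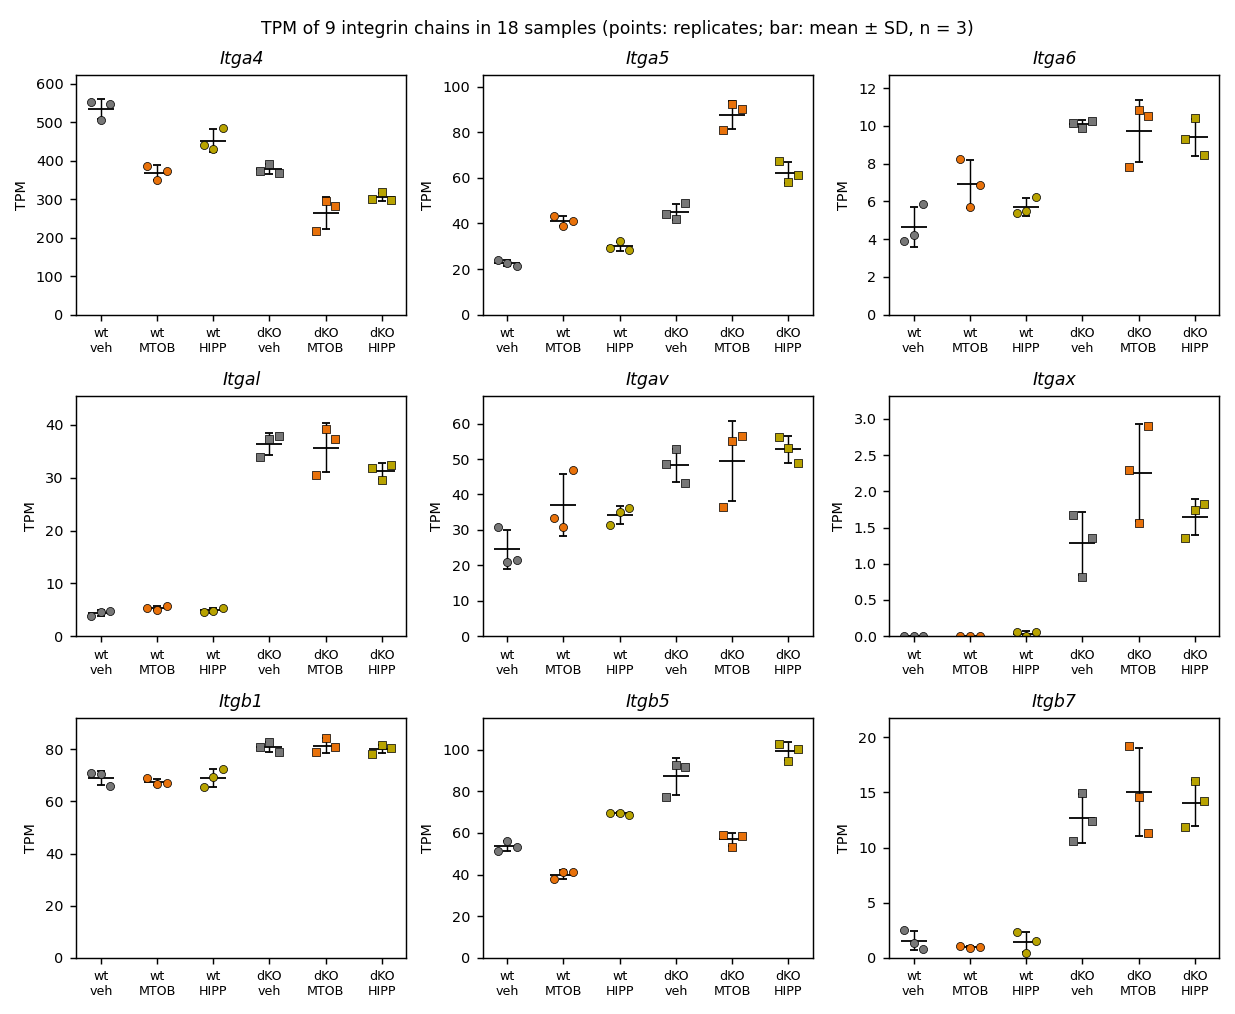
TPM of each integrin chain (1 panel per gene, vertical axis from 0 TPM) in wildtype (circles) and dKO (squares) cells under vehicle (grey), MTOB (orange) and 4-Cl-HIPP (yellow, HIPP). Points are replicates and bars are the mean ± SD of 3. Itgal, Itgb7, Itgax and Itgb1 separate by genotype under all treatments, whereas Itga4, Itga5 and Itgb5 also shift with MTOB within each genotype.

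Loss of CTBPs was compared with wildtype under each treatment. Under vehicle, 8 of the 9 integrin chains were higher in dKO than in wildtype cells and Itga4 was lower, and all 9 passed the test. Among all genes, 10.8% passed in this comparison, 7.07% higher and 3.72% lower in dKO cells. On the scale of TPM + 1, the largest log2 fold changes were those of Itgal and Itgb7, chains with few TPM in wildtype cells. This order did not hold under every alternative described below. Over the alternative pseudocount, filters, scalings and fits, Itgax ranged from 1.16 to 3.74, Itgal from 2.72 to 3.03 and Itgb7 from 2.39 to 3.07. With a fold change above 1.5 as well, 7 of the 9 chains passed, against 4.83% of all genes. The vehicle samples of the genotypes did not overlap for any of the 9, as for 26.1% of all genes. The median log2 fold change was 0.97 over the 9 chains and 0.01 over all genes tested. In bulk RNA, fewer cells with a transcript and less of it per cell cannot be told apart.

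Both chains that pair with β2 were higher in dKO cells. Itgal, the αL chain of LFA-1, had 3.80, 4.52 and 4.83 TPM in the wildtype vehicle samples and 34.0, 37.3 and 38.0 TPM in the dKO vehicle samples. No wildtype value came near the dKO range. The log2 fold change was 2.80 (adjusted p = 1.33e-11, SE 0.09) under vehicle, 2.54 (adjusted p = 3.8e-11) under MTOB and 2.45 (adjusted p = 7.61e-11) under 4-Cl-HIPP. Itgax, the αX chain and a marker often used for dendritic cells, was listed at 0 in the wildtype vehicle and wildtype MTOB samples and reached at most 0.0537 TPM with 4-Cl-HIPP. In dKO cells it had 1.67, 0.819 and 1.36 TPM under vehicle, 2.30, 1.56 and 2.90 with MTOB and 1.36, 1.75 and 1.83 with 4-Cl-HIPP. It was therefore detected in all 9 dKO samples, at a low level, and passed the test under vehicle (adjusted p = 0.000184), MTOB (adjusted p = 4.75e-06) and 4-Cl-HIPP (adjusted p = 4.69e-05). The dendritic cell markers Flt3, Zbtb46 and Xcr1, of which 2 had a row, summed to at most 0.737 TPM in any sample.

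The partner of both chains and its CR3 mate moved in the same direction. Itgb2 had 55.1 ± 1.09 TPM in wildtype and 98.3 ± 10.3 TPM in dKO cells under vehicle (SD, n = 3), a log2 fold change of 0.82 (adjusted p = 1.39e-05). Itgam, the gene next to Itgax, had 15.8 ± 4.51 and 47.9 ± 3.64 TPM, a log2 fold change of 1.57 (adjusted p = 2.33e-05). Both were also higher in dKO cells under MTOB and under 4-Cl-HIPP. Of the 17 chains outside the 10 members, 7 were tested, and Itgam and Itgb2 were the only ones that passed in any of the 3 genotype comparisons. They were 28.6% of those tested in each, against 10.8% of all genes under vehicle, 11.2% under MTOB and 10.2% under 4-Cl-HIPP.

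Itgb7, an alternative partner of α4, differed less than Itgal under vehicle and more than Itgal under MTOB and under 4-Cl-HIPP. It had 2.51, 1.36 and 0.782 TPM in the wildtype vehicle samples and 10.6, 15.0 and 12.4 TPM in the dKO vehicle samples. The groups did not overlap, and the dKO replicates varied far less than the distance between the groups. The log2 fold change was 2.46 (adjusted p = 1.96e-05, SE 0.28) under vehicle, 3.02 (adjusted p = 2.24e-06) under MTOB and 2.71 (adjusted p = 7.47e-06) under 4-Cl-HIPP. Itgb1, the common β chain of α4, α5 and α6, differed least of the 9. It had 71.0, 70.4 and 66.1 TPM in wildtype and 81.0, 82.9 and 79.1 TPM in dKO cells under vehicle. All dKO samples were above all wildtype samples here too, by a log2 fold change of 0.23 (adjusted p = 0.00208, SE 0.04). The difference was 0.26 (adjusted p = 0.000536) under MTOB and 0.21 (adjusted p = 0.00337) under 4-Cl-HIPP.

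Itga4 was the single chain that was lower in dKO cells. It had 552, 506 and 549 TPM in the wildtype vehicle samples and 375, 393 and 369 TPM in the dKO vehicle samples. No dKO value reached the wildtype range, and the log2 fold change was -0.50 (adjusted p = 0.00101, SE 0.09). It was -0.49 (adjusted p = 0.00114) under MTOB and -0.56 (adjusted p = 0.000339) under 4-Cl-HIPP. The number of Itga4 TPM per Itgb7 TPM was 219.6 to 701 in wildtype and 26.2 to 35.4 in dKO cells under vehicle, and that per Itgb1 TPM was 7.18 to 8.30 and 4.62 to 4.74. These ratios describe the RNA of the chains and were not tested.

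Itga5 and Itgb5, chains of a fibronectin and a vitronectin receptor, were higher in dKO cells under every treatment. Itga5 had 24.2, 22.5 and 21.2 TPM in the wildtype vehicle samples and 44.1, 42.1 and 49.0 TPM in the dKO vehicle samples. The lowest dKO value was well above the highest wildtype value, and the log2 fold change was 0.96 (adjusted p = 3.7e-07, SE 0.08). It was 1.07 (adjusted p = 1.08e-07) under MTOB and 1.03 (adjusted p = 1.62e-07) under 4-Cl-HIPP. Itgb5, the β partner of αv, had 51.5, 56.2 and 53.4 TPM in wildtype and 77.1, 92.9 and 91.6 TPM in dKO cells under vehicle. The groups did not overlap, with a log2 fold change of 0.69 (adjusted p = 3.39e-06, SE 0.07), and it was also higher in dKO cells under MTOB, 0.50 (adjusted p = 8.85e-05), and under 4-Cl-HIPP, 0.51 (adjusted p = 7.05e-05).

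Itgav and Itga6 passed in fewer comparisons. Itgav had 30.8, 21.1 and 21.6 TPM in wildtype and 48.6, 52.7 and 43.4 TPM in dKO cells under vehicle. The groups did not overlap although wildtype replicate 1 stood above the other 2, and the log2 fold change was 0.97 (adjusted p = 0.00181, SE 0.18). Under 4-Cl-HIPP it was 0.61 (adjusted p = 0.0422), a call that was lost when any 1 of the 6 libraries was left out (adjusted p = 0.066 to 0.139), and under MTOB the value was 0.40 (adjusted p = 0.199). Itga6, a laminin receptor chain, had 3.88, 4.21 and 5.88 TPM in wildtype and 10.2, 9.91 and 10.3 TPM in dKO cells under vehicle. Its log2 fold change was 0.99 (adjusted p = 0.000254, SE 0.15) under vehicle, 0.63 (adjusted p = 0.011) under 4-Cl-HIPP and 0.44 (adjusted p = 0.0776) under MTOB. Under MTOB, Itgav passed without dKO MTOB replicate 1 (adjusted p = 0.0338), and Itga6 passed without that library (adjusted p = 0.0242) or without wildtype MTOB replicate 1 (adjusted p = 0.0413). The 4-Cl-HIPP call of Itga6 was lost without dKO 4-Cl-HIPP replicate 2 (adjusted p = 0.0532).

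Under MTOB, 7 of the 9 chains thus passed between genotypes, 6 higher in dKO cells and Itga4 lower, against 11.2% of all genes (6.99% higher and 4.16% lower). Under 4-Cl-HIPP all 9 passed, 8 of them higher, against 10.2% of all genes (6.54% higher and 3.63% lower). In the genotype comparison under MTOB, dKO MTOB replicate 1 had the lowest Itgav, Itga6 and Itga4 TPM of its group, and without this library Itga6 (adjusted p = 0.0242) and Itgav (adjusted p = 0.0338) passed, which made 9 of 9. Itga6 also passed without wildtype MTOB replicate 1 (adjusted p = 0.0413).

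Markers that go with the macrophage state also differed between genotypes. Adgre1, which encodes the macrophage marker F4/80, had 29.1 TPM in wildtype and 8.93 TPM in dKO cells under vehicle, a log2 fold change of -1.59 (adjusted p = 1.53e-05). Under vehicle, other genes of the macrophage list were higher in dKO cells, Fcgr1 by a log2 value of 0.62 (adjusted p = 0.00945) and Cd68 by 0.21 (adjusted p = 0.00108). Csf1r, Lyz2, Ptprc and Spi1 did not pass under vehicle. Between genotypes Fcgr1 did not pass under MTOB, at 0.15 (adjusted p = 0.633), or under 4-Cl-HIPP, at -0.03 (adjusted p = 0.955). Cd68 passed under MTOB (adjusted p = 0.0222) and under 4-Cl-HIPP (adjusted p = 0.0209), higher in dKO cells in both. The summed macrophage list was 2319 to 2376 TPM in wildtype and 2335 to 2385 TPM in dKO cells under vehicle. Of the osteoclast markers Ctsk, Calcr and Ocstamp, 2 had a row, and their sum was 0.0535 to 0.275 TPM in wildtype and 7.13 to 9.87 TPM in dKO cells under vehicle. Ocstamp, which takes part in cell fusion, made up most of it, with 0.0995 TPM in wildtype and 8.01 TPM in dKO cells under vehicle, a log2 fold change of 3.03 (adjusted p = 2.53e-10), whereas Ctsk did not exceed 0.858 TPM in any sample. B cell, platelet, fibroblast, epithelial and endothelial markers with a row summed to at most 1.56 TPM per list in any sample, and the T cell markers were not analysed here. The part of these differences in the integrin values was not tested.

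MTOB was compared with vehicle to ask which integrin chains respond to the inhibitor with and without CTBPs. In wildtype cells, 3 of the 9 chains changed, with Itga5 higher and Itga4 and Itgb5 lower, against 7.26% of all genes that passed in this comparison (3.80% higher and 3.46% lower). In dKO cells Itga5 was likewise higher and Itga4 and Itgb5 lower, and the other 6 did not pass, against 6.59% of all genes (3.08% higher and 3.51% lower). The median log2 fold change over the 9 chains was 0 in wildtype and 0.01 in dKO cells, and over all genes it was -0.01 in both. In wildtype cells MTOB raised Adgre1 by a log2 fold change of 1.79 (adjusted p = 1.03e-05), and the dKO value was 0.46 (adjusted p = 0.166). The wildtype minus dKO difference of these responses was 1.33 and did not pass in limma (adjusted p = 0.0762). The part of Adgre1 in the integrin values was not tested.

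Itga5 was the chain that rose. It had 43.3, 39.0 and 41.3 TPM in wildtype cells with MTOB, all above the wildtype vehicle values, and the log2 fold change was 0.84 (adjusted p = 3.87e-06, SE 0.08). With MTOB in dKO cells it reached 80.8, 92.4 and 90.1 TPM, again above every vehicle value, with a log2 fold change of 0.95 (adjusted p = 1.13e-06, SE 0.08). Both changes were above 1.5-fold. The mean Itga5 TPM of wildtype cells with MTOB, 41.2 ± 2.15, was close to that of dKO cells under vehicle, 45.1 ± 3.57 (SD, n = 3), and the ranges of these groups overlapped.

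Itga4 fell in both genotypes. It had 386, 349 and 373 TPM in wildtype cells with MTOB, below all vehicle values, a log2 fold change of -0.53 (adjusted p = 0.000962, SE 0.09). The dKO samples with MTOB had 217, 296 and 281 TPM, and replicate 1 was the lowest of all 18 samples. The log2 fold change was -0.53 (adjusted p = 0.00133, SE 0.09), and a fit of these 2 groups alone did not pass (adjusted p = 0.117). From wildtype cells under vehicle to dKO cells with MTOB, the mean Itga4 TPM went from 536 ± 25.5 to 265 ± 41.6 (SD, n = 3).

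Itgb5 also fell in both. With MTOB it had 37.6, 41.4 and 41.1 TPM in wildtype cells, a log2 fold change of -0.42 (adjusted p = 0.000902, SE 0.07). In dKO cells it had 58.8, 53.3 and 58.5 TPM, a log2 fold change of -0.60 (adjusted p = 3.27e-05, SE 0.07) and the only one of the Itgb5 changes above 1.5-fold after an inhibitor. Neither MTOB group overlapped its vehicle group. The share of all genes that separate in this way with MTOB is not given here, so the separations of Itga5, Itga4 and Itgb5 only describe the samples. The Itgb5 TPM of dKO cells with MTOB overlapped those of wildtype cells under vehicle.

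The other chains did not pass in either genotype with MTOB. In wildtype cells Itga6 had 8.24, 5.70 and 6.89 TPM and a log2 fold change of 0.49 (adjusted p = 0.0581, SE 0.15), and its groups overlapped only between 5.70 and 5.88 TPM. Itgav had 33.4, 30.8 and 47.0 TPM and a log2 fold change of 0.58 (adjusted p = 0.0691, SE 0.18), and the lowest MTOB value and the highest vehicle value met at 30.8 TPM. Without wildtype vehicle replicate 1, the highest Itgav value of its group, Itgav passed (adjusted p = 0.026), and Itga6 passed without wildtype vehicle replicate 3 (adjusted p = 0.0181) or without wildtype MTOB replicate 2 (adjusted p = 0.0352). In dKO cells the values were -0.06 (adjusted p = 0.891) for Itga6 and 0.01 (adjusted p = 1.0) for Itgav. Itgb1 had a log2 fold change of -0.03 (adjusted p = 0.783) in wildtype and 0.01 (adjusted p = 0.981) in dKO cells, and Itgal one of 0.23 (adjusted p = 0.189) and -0.03 (adjusted p = 0.912). Itgb7 had -0.34 (adjusted p = 0.607) and 0.21 (adjusted p = 0.771). Itgax stayed listed at 0 in wildtype cells and had 0.51 (adjusted p = 0.094) in dKO cells, where it passed without dKO MTOB replicate 2 (adjusted p = 0.0299).

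4-Cl-HIPP was compared with the same vehicle samples, at a lower dose than MTOB, so the inhibitors are given side by side and were not tested against each other. In wildtype cells 2 of the 9 chains passed, Itga5 and Itgb5, both higher, against 0.342% of all genes (0.305% higher and 0.0366% lower). In dKO cells 1 passed, Itga5, again higher, against 0.494% of all genes (0.403% higher and 0.0916% lower). All 3 changes were below 1.5-fold.

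Itga5 had 29.2, 32.3 and 28.2 TPM in wildtype cells with 4-Cl-HIPP, above all vehicle values, a log2 fold change of 0.39 (adjusted p = 0.0415, SE 0.08). The dKO samples had 67.2, 58.2 and 61.2 TPM, also above all vehicle values, a log2 fold change of 0.46 (adjusted p = 0.0112, SE 0.08). The wildtype call was lost when any 1 of the 6 libraries was left out, with an adjusted p of 0.0548 to 0.193. The dKO call was lost on leaving out 4-Cl-HIPP replicate 1 of that genotype (adjusted p = 0.0713) and, for its vehicle group, replicate 1 (adjusted p = 0.0591) or 2 (adjusted p = 0.0642).

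Itgb5 had 69.7, 69.7 and 68.7 TPM in wildtype cells with 4-Cl-HIPP, all above the vehicle values of 51.5 to 56.2 TPM. The log2 fold change was 0.36 (adjusted p = 0.0233, SE 0.07), and the call was kept without wildtype vehicle replicate 2 (adjusted p = 0.0488) and lost without any of the other 5 libraries (adjusted p = 0.0819 to 0.115). In dKO cells it had 103, 94.4 and 100.4 TPM and a log2 fold change of 0.19 (adjusted p = 0.368, SE 0.07). For Itgb5 the signs of the inhibitors were opposite, with 1.5 mM MTOB below vehicle and 0.25 mM 4-Cl-HIPP above it in both genotypes, although the dKO value with 4-Cl-HIPP did not pass.

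Itga4 had 441, 430.4 and 487 TPM in wildtype cells with 4-Cl-HIPP, and every value was below those of the vehicle group. Its log2 fold change was -0.24 (adjusted p = 0.422, SE 0.09), which did not pass. The dKO values were 299.8, 319 and 299 TPM, again below every vehicle value, with a log2 fold change of -0.31 (adjusted p = 0.186, SE 0.09). Itgav in wildtype cells, with 31.4, 35.0 and 36.2 TPM, was above all vehicle values and had a log2 fold change of 0.48 (adjusted p = 0.457, SE 0.18). The share of all genes that separate in this way with 4-Cl-HIPP is not given here, so these separations only describe the samples. Itgb1, Itga6, Itgal, Itgb7 and Itgax did not pass in either genotype, with log2 fold changes from -0.21 for Itgal in dKO cells to 0.26 for Itga6 in wildtype cells.

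**Figure D2:**
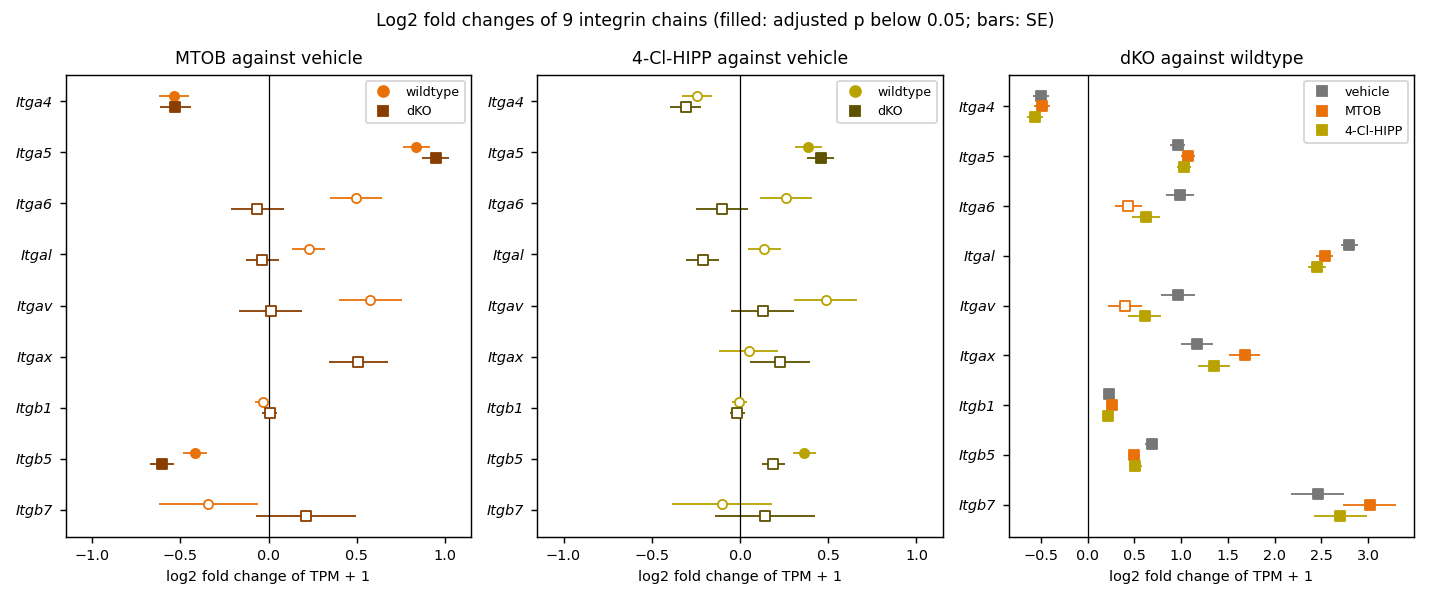
Log2 fold changes of TPM + 1 (horizontal axis) of the integrin chains (vertical axis) for MTOB against vehicle and 4-Cl-HIPP against vehicle in wildtype and dKO cells, and for dKO against wildtype under each treatment. Filled symbols passed the test, open symbols did not, and bars are the SE. Itga5 lies right of 0 in all 7 comparisons and Itga4 left of 0 in all 7, and Itgax is not drawn for MTOB in wildtype cells, where it was listed at 0.

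Whether the response to an inhibitor differed between genotypes was tested as an interaction, the log2 fold change in wildtype minus that in dKO cells. With limma, 0 of the 9 chains passed for MTOB and 0 for 4-Cl-HIPP, against 0.0916% and 0% of all genes. At an unadjusted p below 0.05 there were 2 chains for MTOB, Itga6 and Itgav, and 1 for 4-Cl-HIPP, Itgal, against 6.85% and 4.52% of all genes. The MTOB difference was 0.56 (95% interval 0.11 to 1.00, adjusted p = 0.641) for Itga6 and 0.57 (95% interval 0.02 to 1.11, adjusted p = 0.717) for Itgav. The 4-Cl-HIPP difference of Itgal was 0.35 (95% interval 0.07 to 0.63, adjusted p = 1.0). For the chains that responded to MTOB in both genotypes, the difference was -0.01 (95% interval -0.27 to 0.25, adjusted p = 0.999) for Itga4, -0.11 (95% interval -0.34 to 0.12, adjusted p = 0.902) for Itga5 and 0.19 (95% interval -0.01 to 0.39, adjusted p = 0.745) for Itgb5. These intervals bound how far the responses could differ and do not show that they were equal.

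The levels over all 6 groups can be put in order. Itga4 was highest in wildtype cells under vehicle, then in wildtype cells with 4-Cl-HIPP. The dKO vehicle and wildtype MTOB groups followed and overlapped each other, and the dKO 4-Cl-HIPP and dKO MTOB groups came last, each below the one before. Itga5 ran nearly the other way, from dKO MTOB and dKO 4-Cl-HIPP down to the overlapping dKO vehicle and wildtype MTOB groups, then wildtype 4-Cl-HIPP and wildtype vehicle. Itgb5 was highest in dKO cells with 4-Cl-HIPP, then in dKO vehicle and wildtype 4-Cl-HIPP samples. The dKO MTOB and wildtype vehicle samples overlapped below these, and wildtype MTOB was lowest. For Itgal, Itgb7, Itgax, Itgb1 and Itga6 every dKO group lay above every wildtype group, with 1 exception. A wildtype MTOB sample of Itga6 at 8.24 TPM was above the lowest dKO MTOB sample at 7.84 TPM. Under vehicle the genotypes did not overlap for 26.1% of all genes. The share over all treatments is not given here, so this order only describes the samples. For Itgav, neighbouring groups overlapped from dKO 4-Cl-HIPP down to wildtype 4-Cl-HIPP, and wildtype vehicle stood below them.

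The opposite order of Itga4 and Itga5 can be seen in their ratio within each sample, given as a description. In wildtype cells there were 23.7 ± 1.88 Itga4 TPM per Itga5 TPM under vehicle, 15.2 ± 1.97 with 4-Cl-HIPP and 8.97 ± 0.0717 with MTOB (SD, n = 3). In dKO cells the ratio was 8.45 ± 0.903 under vehicle, 4.94 ± 0.513 with 4-Cl-HIPP and 3.00 ± 0.274 with MTOB (SD, n = 3). The groups overlapped only between wildtype MTOB and dKO vehicle.

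**Figure D3:**
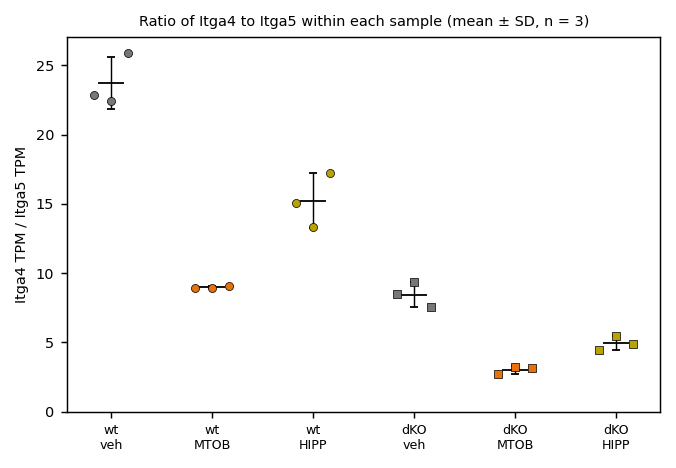
Itga4 TPM divided by Itga5 TPM (vertical axis, from 0) in each of the 18 samples, by group. Points are replicates, circles for wildtype and squares for dKO, and bars are the mean ± SD of 3. The ratio is 22.5 to 25.9 in wildtype cells under vehicle and 2.69 to 3.20 in dKO cells with MTOB.

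The genes most like the 3 members with the widest range of group means were found by Pearson r of log2(TPM + 1) over the 18 samples, among genes with a mean of at least 10 TPM. Itgal was most like Mfge8 (r = 0.995), H2-Aa (r = 0.995), an MHC class II chain listed at 0 in the wildtype vehicle samples, and Anxa2 (r = 0.994). Itgb7 was most like Zfp217 (r = 0.974), S100a11 (r = 0.970) and Mfge8 (r = 0.968). Itga5 was most like Cxcl16 (r = 0.966), Jdp2 (r = 0.964) and Aff1 (r = 0.964). The 18 points share genotype and treatment, so these values describe a common split of the samples.

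The proteins that activate integrins or link them to the cytoskeleton were described with a list of 51 genes, of which 44 were tested. With MTOB, 10 passed in wildtype cells, 8 higher and 2 lower, and 12 passed in dKO cells, 5 higher and 7 lower. These are 22.7% and 27.3% of the list, against 7.26% and 6.59% of all genes, and its median log2 fold change was 0.09 and -0.03. Without dKO vehicle replicate 2 the dKO count was 7, and fits of only the groups compared gave 6 in wildtype and 2 in dKO cells. Fyb, an adaptor of integrin activation in leukocytes, had 71.5, 69.0 and 71.1 TPM in wildtype cells under vehicle and 186, 150.0 and 161 with MTOB. All MTOB samples were higher, by a log2 fold change of 1.21 (adjusted p = 3.3e-06, SE 0.11), and in dKO cells the change was 1.09 (adjusted p = 1.12e-05). Zyx, which encodes the focal adhesion protein zyxin, had few TPM, and with MTOB its log2 fold change was 1.06 (adjusted p = 0.0308) in wildtype and 1.31 (adjusted p = 0.00955) in dKO cells. The wildtype call was lost in 5 of 6 fits that left out 1 library (adjusted p up to 0.133), all but that without wildtype vehicle replicate 2, and neither genotype passed in a fit of its 2 groups alone (adjusted p = 0.0734 and 0.059). Cd47, which encodes an integrin-associated membrane protein, had 29.8 ± 2.72 TPM under vehicle and 57.5 ± 3.94 TPM with MTOB in wildtype cells (SD, n = 3), a log2 fold change of 0.93 (adjusted p = 1.61e-05), and it rose in dKO cells too, by 0.46 (adjusted p = 0.00815). Filip1l, a homologue of a filamin A-interacting protein, rose in dKO cells by a log2 value of 0.61 (adjusted p = 0.00703). With 4-Cl-HIPP, 0 of the 44 passed in wildtype cells in limma, against 0.342% of all genes. There 11 had an unadjusted p below 0.05, and the share of all genes at that threshold is not given here. In dKO cells 1 passed, 2.27% of the list against 0.494% of all genes. It was Lims1, an adaptor of integrin-linked kinase, with a log2 fold change of 0.28 (adjusted p = 0.0132). The Lims1 call was lost without replicate 1 or 3 of dKO 4-Cl-HIPP or replicate 1 or 2 of dKO vehicle (adjusted p = 0.0625 to 0.0698).

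Between genotypes 13 of the 44 passed under vehicle (12 higher and 1 lower in dKO cells), 13 under MTOB (10 and 3) and 12 under 4-Cl-HIPP (10 and 2), which is 29.5%, 29.5% and 27.3% of the list against 10.8%, 11.2% and 10.2% of all genes. The vehicle count was 8 without dKO vehicle replicate 2 or wildtype vehicle replicate 1. The MTOB count was 8 without dKO MTOB replicate 3 or wildtype MTOB replicate 1, and 3 in a fit of only these groups. The median log2 fold change of the list was 0.12, 0.05 and 0.10, against 0.01, 0.00 and 0.00 over all genes. Vcl and Pxn, which encode the focal adhesion proteins vinculin and paxillin, were higher in dKO cells under all treatments. Pxn had 73.0, 76.5 and 73.6 TPM in wildtype and 104, 109.5 and 109 TPM in dKO cells under vehicle. The groups were far apart relative to their spread, with a log2 fold change of 0.52 (adjusted p = 4.18e-06, SE 0.05), and it was 0.36 (adjusted p = 0.000202) under MTOB and 0.59 (adjusted p = 1.19e-06) under 4-Cl-HIPP. The log2 fold change of Vcl was 0.59 (adjusted p = 0.00169), 0.41 (adjusted p = 0.0244) and 0.61 (adjusted p = 0.00137), and its groups overlapped under MTOB, where the call was lost without replicate 2 or 3 of dKO MTOB or replicate 1 or 2 of wildtype MTOB (adjusted p = 0.0627 to 0.122). Cd47 was higher under vehicle by a log2 value of 0.52 (adjusted p = 0.00196) and Filip1l under MTOB by 0.43 (adjusted p = 0.0384). The Filip1l call was kept without dKO MTOB replicate 1 and lost without any of the other 5 libraries (adjusted p = 0.0615 to 0.149), after quantile normalization (adjusted p = 0.0516) and with the replicate block (adjusted p = 0.0627). Zyx was lower in dKO cells under 4-Cl-HIPP, at a log2 fold change of -1.08 (adjusted p = 0.0203), with groups that overlapped. That call was lost without replicate 1 or 3 of dKO or replicate 2 or 3 of wildtype 4-Cl-HIPP (adjusted p = 0.0673 to 0.102).

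Of 45 integrin ligands and counter-receptors, 23 were tested. With MTOB, 7 passed in each genotype, 30.4% of the list against 7.26% of all genes in wildtype and 6.59% in dKO cells, and all were higher (3.80% and 3.08% of all genes), with a list median of 0.17 in both. With 4-Cl-HIPP 0 passed in either genotype in limma, against 0.342% of all genes in wildtype and 0.494% in dKO cells. At an unadjusted p below 0.05 there were 4 in wildtype and 2 in dKO cells. The share of all genes at that threshold is not given here, so these 2 counts only describe the list. Spp1, which encodes osteopontin, a ligand of αv and α4 integrins, had 206, 193 and 168 TPM in wildtype cells under vehicle and 572, 595 and 519.9 with MTOB. The MTOB samples were all far above vehicle, with a log2 fold change of 1.57 (adjusted p = 1.15e-09, SE 0.07). In dKO cells Spp1 went from 222 ± 4.36 to 466 ± 26.5 TPM (SD, n = 3), a log2 fold change of 1.07 (adjusted p = 8.72e-08). Adam8, a metalloprotease whose disintegrin domain can bind integrins, rose by log2 values of 0.94 (adjusted p = 1.02e-08) in wildtype and 0.82 (adjusted p = 5.44e-08) in dKO cells. Lamc1, a laminin chain, rose by a log2 value of 0.72 (adjusted p = 8.59e-06) in wildtype cells.

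Between genotypes 7 of the 23 ligands passed under each treatment, 30.4% of the list against 10.8%, 11.2% and 10.2% of all genes, with 6 higher and 1 lower in dKO cells under vehicle, 5 and 2 under MTOB and 6 and 1 under 4-Cl-HIPP. The list median was 0.06, 0.04 and 0.04. Each count moved when 1 library was left out. Under vehicle 4 passed without any 1 of the dKO replicates or without wildtype replicate 2. Under MTOB 3 passed without wildtype replicate 2, 4 without wildtype replicate 1 or 3 or dKO replicate 2, and 2 in a fit of only these groups. Under 4-Cl-HIPP 4 passed without dKO replicate 2 or 3 or wildtype replicate 1 or 3. Mfge8, the αv ligand that bridges to apoptotic cells, had 31.4, 35.2 and 36.6 TPM in wildtype and 111, 120.0 and 115 TPM in dKO cells under vehicle. It was higher in every dKO sample, with log2 fold changes of 1.72 (adjusted p = 6.97e-12, SE 0.05) under vehicle, 1.79 (adjusted p = 4.69e-12) under MTOB and 1.59 (adjusted p = 1.73e-11) under 4-Cl-HIPP. Adam8 was higher in dKO cells under vehicle by a log2 value of 0.53 (adjusted p = 2.83e-06). Jam2, a junctional adhesion molecule, had a log2 fold change of 1.09 (adjusted p = 0.0401) under vehicle and 1.09 (adjusted p = 0.0419) under 4-Cl-HIPP. The vehicle call was lost when any 1 of the 6 libraries was left out (adjusted p = 0.0695 to 0.12), and the 4-Cl-HIPP call was kept without wildtype 4-Cl-HIPP replicate 2 (adjusted p = 0.0311) and lost without any of the other 5 (adjusted p = 0.0819 to 0.18). Both were also lost without a variance trend, after quantile normalization and with the replicate block (adjusted p = 0.0514 to 0.0608). F11r, which encodes another junctional adhesion molecule, averaged 0.858 TPM in dKO cells under MTOB (adjusted p = 0.026), and it passed under 4-Cl-HIPP as well (adjusted p = 0.0186), where it was listed at 0 in wildtype cells. Its MTOB call was kept without dKO MTOB replicate 3 (adjusted p = 0.00213) and lost without any of the other 5 libraries (adjusted p = 0.0597 to 0.111). The 4-Cl-HIPP call was lost when any 1 library was left out (adjusted p = 0.0505 to 0.0563).

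**Figure D4:**
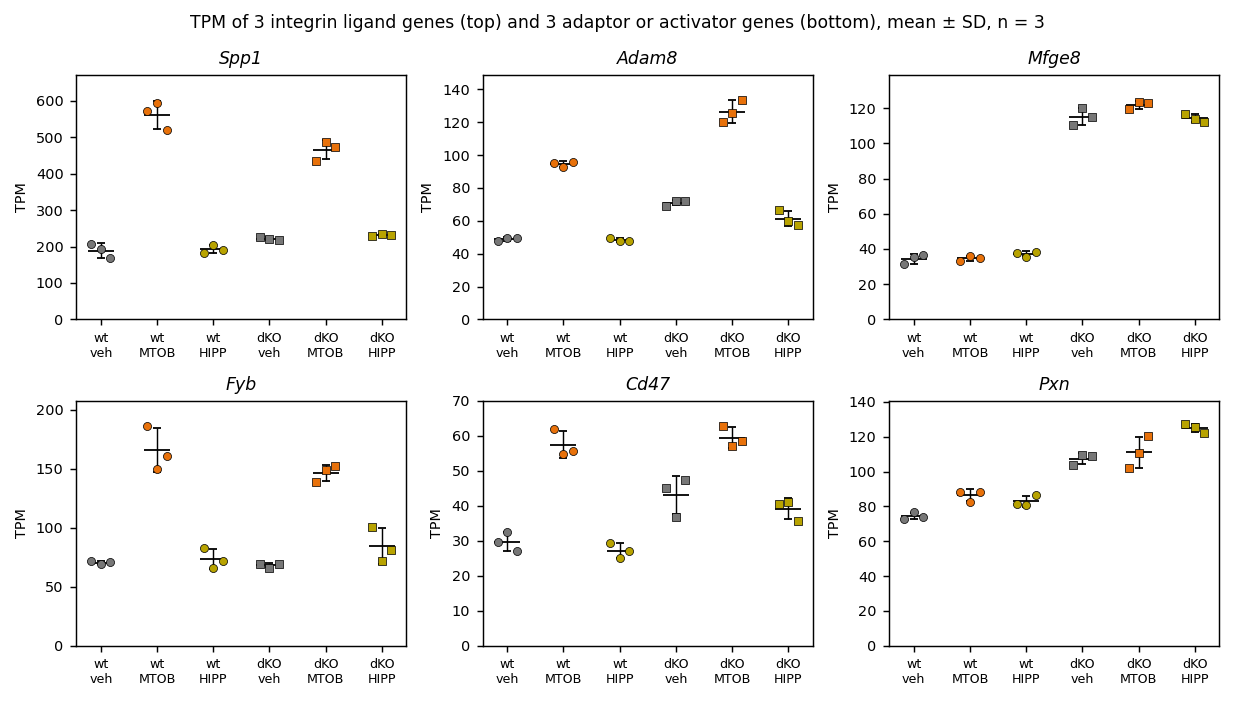
TPM (vertical axes, from 0) of the ligand genes Spp1, Adam8 and Mfge8 and of Fyb, Cd47 and Pxn, which act with integrins at the membrane or focal adhesion, in the 6 groups. Points are replicates, circles for wildtype and squares for dKO, and bars are the mean ± SD of 3. Spp1, Adam8, Fyb and Cd47 are higher with MTOB (orange) in both genotypes, and Mfge8 and Pxn separate wildtype from dKO.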

How the data were processed

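RNA was sequenced from 18 samples of J774.1 cells, with groups taken from the labelled genotype and treatment. According to the methods, an unstranded TruSeq kit with rRNA depletion was used (the labels name polyA RNA), so reads of overlapping antisense genes cannot be separated. The authors quantified transcripts with Salmon 1.9.0, with GC correction, on Gencode M28 (GRCm39), and deposited the TPM of 18204 genes per sample. The authors also deposited, as a signal, each gene's mean normalized count from DESeq2 1.44.0. It was used here for the expression filter and the variance trend, and is quoted for Itgax and Itgb7. The log2 fold changes and adjusted p-values of the authors' own comparisons were not used.

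Here, log2(TPM + 1) of the 16383 genes whose mean normalized count exceeded 0.222, the 10th percentile, was fitted with 6 group means over all 18 samples in limma 3.58.1 (R 4.3.3), using empirical Bayes with a variance trend along the log2 of that mean count. There were 9 contrasts: dKO against wildtype under each treatment, each inhibitor against vehicle in either genotype, and the difference of each inhibitor response between genotypes. For each contrast, p-values were adjusted with the Benjamini-Hochberg method across all 16383 genes. No 2 libraries held identical values. The integrin chains, the lists of other chains, adaptors and ligands, and the tests were chosen with earlier results of these data known. All members, the CR3 pair, both targeted genes and, per list and comparison, up to 3 genes past the test with the largest log2 fold change are named, except for a ligand gene that is counted in its list but not reported here. Adgre1, Ocstamp and the other markers were named after their values were seen. Alternatives were another pseudocount (0.1), other filters, scalings and fits, a replicate block, and leaving out each library. Gene positions are from GRCm39, and promoters are from RefSeq (GRCm38.p6), matched by symbol for 7 of the 10 members. Figures were drawn with matplotlib 3.10.9.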

Additional observations from a re-analysis of the deposited data

How the results depend on the processing

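The genotype calls under vehicle were kept for all 9 integrin chains under every alternative that gave a value, and the MTOB calls of Itga5 and Itgb5 in both genotypes were kept as well. With only genes of a mean of at least 1 TPM, Itgax was not tested. The 4-Cl-HIPP calls were the least stable. Of the 2 chains called with 4-Cl-HIPP in wildtype cells, 1 passed without a filter on low genes, 1 after quantile normalization, 1 with the replicate block, 0 without a variance trend and 0 in a fit of only the groups compared, where the single dKO call fell to 0 too. The 3 chains called with MTOB in wildtype cells became 5 with genes of a mean of at least 1 TPM, Itga6 (adjusted p = 0.0394) and Itgav (adjusted p = 0.0382) being added. Itga6 also passed there with median-of-ratios scaling (adjusted p = 0.0434) and with a pseudocount of 0.1 (adjusted p = 0.0493). In fits of only the groups compared, Itga4 was not called with MTOB in dKO cells (adjusted p = 0.117) or between genotypes under MTOB (adjusted p = 0.101), and Itgb1 was not called between genotypes under 4-Cl-HIPP (adjusted p = 0.0544). Genes of the other lists were lost in such fits as well, namely Filip1l with MTOB in dKO cells (adjusted p = 0.0633) and, between genotypes, Cd47 under vehicle (adjusted p = 0.0622), Vcl (adjusted p = 0.238), Filip1l (adjusted p = 0.102) and F11r (adjusted p = 0.189) under MTOB and Zyx (adjusted p = 0.16) and Jam2 (adjusted p = 0.0677) under 4-Cl-HIPP, as was Lims1 with 4-Cl-HIPP in dKO cells (adjusted p = 0.12). Such fits use fewer samples for the spread. Itgav was not called between genotypes under 4-Cl-HIPP without a filter on low genes (adjusted p = 0.0505), without a variance trend (adjusted p = 0.0583) or with the replicate block (adjusted p = 0.0669), and the cause was not tested.

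Over all genes, fits of only the groups compared moved the counts past the test from 1189 to 702 (MTOB, wildtype), 1080 to 302 (MTOB, dKO), 56 to 21 (4-Cl-HIPP, wildtype), 81 to 9 (4-Cl-HIPP, dKO), 1827 to 998 (genotype under MTOB), 15 to 9 (MTOB interaction) and 0 to 2 (4-Cl-HIPP interaction). The MTOB interaction had 6 genes without a variance trend and 9 with the replicate block. The share of higher calls under vehicle between genotypes was 65.5% and became 55.3% after quantile normalization, and that of 4-Cl-HIPP in dKO cells went from 81.5% to 70.8% with median-of-ratios scaling. That scaling also turned the MTOB calls in dKO cells from mostly lower, 505 higher and 575 lower, to mostly higher, 590 and 462.

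Leaving out 1 library at a time gave 0 to 1 chains for 4-Cl-HIPP in wildtype and 0 to 1 in dKO cells. Over all genes it gave 19 to 43 and 35 to 78 for 4-Cl-HIPP, 867 to 919 and 715 to 991 for MTOB in wildtype and dKO cells, 6 to 19 for the MTOB interaction and 0 to 3 for the 4-Cl-HIPP interaction. Signs turned only for values that did not pass. The MTOB interaction of Itga4 was 0.0237 after quantile normalization and -0.142 to 0.0785 with a library left out, and the 4-Cl-HIPP interaction of Itgax was 0.027 with a pseudocount of 0.1. With a library left out, the MTOB changes in dKO cells were -0.140 to 0.0717 for Itga6, -0.103 to 0.0718 for Itgal, -0.0986 to 0.213 for Itgav and -0.0193 to 0.0292 for Itgb1. Those of 4-Cl-HIPP were -0.0389 to 0.035 for Itgb1 and -0.369 to 0.225 for Itgb7 in wildtype cells and -0.0327 to 9e-04 for Itgb1 in dKO cells, and the 4-Cl-HIPP interactions were -0.0231 to 0.0507 for Itgb1 and -0.510 to 0.0832 for Itgb7.

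Samples with the same replicate number did not deviate from their group means together (Pearson r of -0.09 to 0.09 over 45 pairs across genes, none above 0.1). This cannot exclude that samples with the same number shared a culture or a preparation. Because the values are TPM, the reads per sample behind Itgax, Itgb7 and other genes with few TPM are unknown. The authors' mean normalized count over all samples was 15.9 for Itgax and 72.6 for Itgb7.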
